A study of Homo sapiens with 16 samples.

Results

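The libraries described here are the 8 Hs578 libraries of a 16-library series: 4 from cells given doxycycline and 4 from the same derived lines without it. The members were chosen by line and treatment alone, with no measured value. The doxycycline group held parental Hs578 cells with no hairpin and 3 derived lines, each with an inducible hairpin RNA that targets PRRX1 (hairpins 1, 2 and 3), all at 3 µg/ml. The group without doxycycline held the same 4 lines, so the libraries form 4 pairs: 1 parental pair and 3 hairpin pairs. The labels describe Hs578 as breast cancer cells, and the design text counts it and TT642, the second line of the series, as triple-negative breast cancer. Each hairpin is represented by 1 derived line. Whether a line is a clone or a pool, whether the parental cells carry the tetracycline repressor, and for how long doxycycline was applied, is not given in the sources used. The labels name no separate cultures, and the spread that p-values measure here is that between these libraries, which may be technical. The labels give the parental cells no hairpin, so a change that they share with the hairpin pairs is one that appears without a hairpin.

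Doxycycline is a tetracycline antibiotic that is used in cell lines to switch on a transgene through a bacterial repressor. Tetracyclines stop protein synthesis on bacterial ribosomes, and mitochondrial ribosomes descend from bacterial ones, so the drug can also slow the making of the proteins encoded by the mitochondrial genome. It also binds metal ions and is known as an inhibitor of matrix metalloproteinases. Mesenchymal breast cancer lines of the kind Hs578 belongs to make large amounts of collagen and other matrix proteins.

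The libraries held between about 13461500 and 19139700 gene counts with doxycycline and between about 17155100 and 18367200 without it. Mesenchymal markers ranged widely in level: vimentin and AXL were high, while TWIST1, of the same list, lay below the keratin KRT18 in all 8 libraries. Epithelial markers ran from no count to KRT18. Vimentin (VIM) lay between 3819 and 5461 CPM (counts scaled to library size, with TMM factors) over the 8 libraries, and the receptor tyrosine kinase AXL between 1233 and 1799 CPM. E-cadherin (CDH1) did not pass 0.342 CPM, the epithelial adhesion molecule EPCAM 0.251 CPM, and the oestrogen receptor ESR1 0.565 CPM in any of the 8 libraries, while KRT18 lay between 172 and 375 CPM and KRT8 between 26.0 and 52.5 CPM. ERBB2 was present at 64.8 to 73.2 CPM. The leukocyte gene PTPRC reached at most 0.913 CPM, and the T cell gene CD3E and the endothelial cadherin CDH5 had no count in these libraries.

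The hairpin target was checked first. PRRX1, a homeobox factor of mesenchymal cells, measured 277, 34.8, 67.6 and 47.3 CPM with doxycycline in the parental, hairpin 1, hairpin 2 and hairpin 3 lines, in the order used throughout, against 271, 272, 212 and 246 CPM without it. The parental pair was level and each hairpin line was lower with doxycycline, so the groups overlapped through the parental library. Over the 4 pairs the log2 fold change was -1.75 (SE 0.49, adjusted p = 0.0394) in edgeR's quasi-likelihood test. Over the settings tried the adjusted p ran from 0.00689 to 0.172, and the call was lost in 7 of them, among them the fit with no replicate block and those without the hairpin 2 or the hairpin 3 pair. The change is not one the parental pair shared.

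Many genes differed with doxycycline over the 4 Hs578 pairs, and most of the changes called in the hairpin pairs went the same way in the parental pair. Most collagens tested, and most of the enzymes that mature them, rose, together with some hypoxia, glycolysis and class I histocompatibility genes and with short genes of the ribosome and the respiratory chain. FOS, FOSB and part of the amino acid stress response, metal transport and cholesterol synthesis lists fell. The median of the cholesterol synthesis list was only -0.06 in the parental pair. Of 12449 genes tested across the 4 pairs, 3969 were called at an adjusted p under 0.05, which is 31.9%: 1868 (15%) were higher and 2101 (16.9%) lower with doxycycline. In 3 of the 4 pairs doxycycline was also given to induce a hairpin, so a call does not show that the parental pair changed. PRRX1 was called with a parental log2 ratio of 0.03. Without the hairpin 2 pair 1360 genes were called, and without the hairpin 3 pair 1765. In these bulk libraries, fewer cells making a transcript and less of it per cell cannot be told apart. With FPKM values in place of counts, limma on log2(FPKM + 1) called 1112 genes higher and 2963 lower, and the median over all genes moved to -0.12 from -0.02 on the log2 scale.

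The direction was shared beyond the call. Of the 12449 genes, 1803 (14.5%) were called higher and 2042 (16.4%) called lower with the same sign in all 4 pairs. With or without a call, 2831 genes (22.7%) were higher and 3168 (25.4%) lower in all 4 pairs. In TT642 the shares were 12.4% and 10.2% of 13436 genes, some of which had few or no counts in that line. In 1717 genes (13.8%) the 4 doxycycline libraries all lay above the 4 without, and in 1810 (14.5%) they all lay below. A change of at least 2-fold on average was called for 183 genes higher (1.47%) and 139 lower (1.12%). At least 2-fold in each of the 4 pairs separately left 20 genes higher (0.161%) and 20 lower (0.161%). In TT642, with the same design, 0 genes were higher (0%) and 1 gene was lower (0.00744%) by at least 2-fold in each of 4 pairs.

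The parental pair is a single library against a single library and has no test of its own, so it was read against the 3 hairpin pairs, which share no library with it. Fitted alone, the hairpin pairs gave 4502 called genes of 12482 tested (36.1%). Of those, 3770 (83.7%) moved the same way in the parental cells, against 8749 of all 12482 genes tested (70.1%). Of the genes that rose most, 157 of the 172 genes at least 2-fold higher in the hairpin pairs moved the same way in the parental cells, with a median log2 ratio there of 1.14, against 1.25 in the hairpin pairs. The 201 genes at least 2-fold lower kept their sign in 163 cases, and their median was -0.61 in the parental pair against -1.25 in the hairpin pairs. Across the 4502 genes the fold change in the hairpin pairs and the ratio in the parental pair had a Pearson correlation of 0.70 and a Spearman correlation of 0.71, a description across genes, which are not independent.

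**Figure D1:**
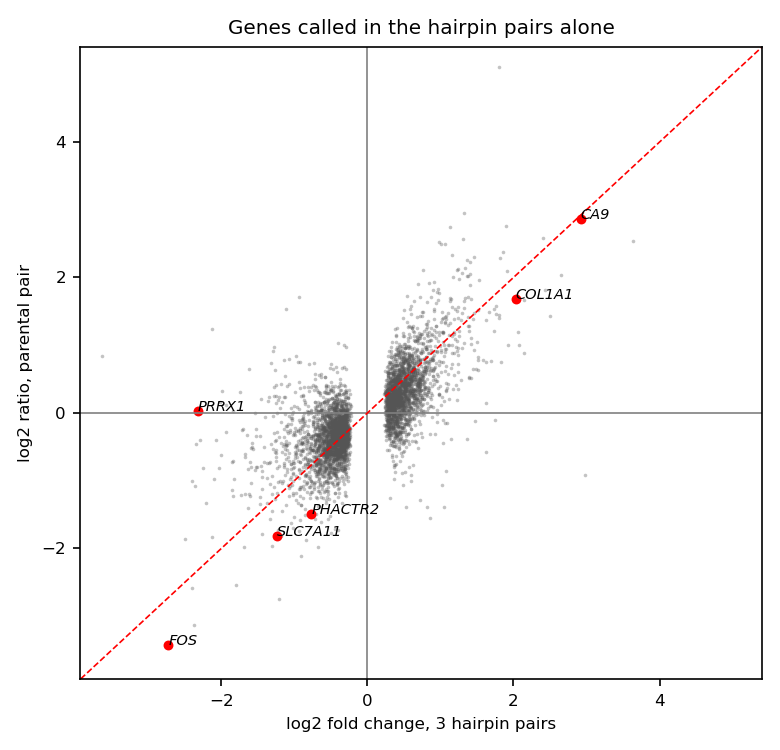
Each of 4495 genes called in the 3 Hs578 hairpin pairs alone and tested in all 4 pairs, with its log2 fold change in the hairpin pairs (horizontal axis) and its log2 ratio in the parental pair (vertical axis); the dashed line marks equal values. COL1A1 and CA9 lie high and SLC7A11, PHACTR2 and FOS lie low on both axes, while PRRX1 lies at 0.03 in the parental pair.

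The 4 pairs were not equally alike. Over 10693 genes, Pearson correlations of the log2 ratios were 0.68 to 0.729 among the hairpin pairs, and 0.327, 0.664 and 0.54 between the parental pair and the pairs of hairpins 1, 2 and 3. Hs578 pairs against TT642 pairs gave -0.052 to 0.232, with genes of few or no counts in TT642 entering at ratios near 0. The hairpin 1 pair stood apart from the other Hs578 pairs at the upper end: 22 genes were at least 2-fold higher in it, against 260 in the parental pair, 172 with hairpin 2 and 222 with hairpin 3. For genes at least 2-fold lower the numbers were 186 with hairpin 1, 217 in the parental pair, 126 with hairpin 2 and 223 with hairpin 3. Leaving hairpin 1 out raised the count of genes at least 2-fold higher in every remaining pair to 104 and of genes lower to 32, and leaving the parental pair out raised the lower count to 57.

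The genes that mark the response are shown in the plot of their levels by derived line. COL1A1, the main chain of type I collagen, measured 6138, 6319, 8077 and 11358 CPM with doxycycline and 1911, 2186, 1914 and 2022 CPM without it. Every doxycycline library lay above every library without the drug, and the log2 fold change was 1.94 (SE 0.17, adjusted p = 0.00131). CA9, a membrane carbonic anhydrase that hypoxia-inducible factor switches on, measured 16, 8.95, 24.8 and 9.37 CPM with doxycycline against 2.09, 2.12, 1.03 and 1.94 CPM without. Again no values overlapped, and at 2.92 (SE 0.37, adjusted p = 0.00281) this rise from low levels was largest with hairpin 2.

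SLC7A11, the cystine importer that feeds glutathione synthesis, measured 154, 207, 158 and 153 CPM with doxycycline and 540.3, 409.8, 412 and 388 CPM without it. All 4 doxycycline libraries were below the others, and the fall was greatest in the parental pair (log2 fold change -1.38, SE 0.13, adjusted p = 0.00131). PHACTR2, a protein that binds actin and protein phosphatase 1, stood at 41.8, 60.2, 55.1 and 60.4 CPM with doxycycline and 118, 110.2, 98.5 and 91 CPM without (log2 fold change -0.95, SE 0.14, adjusted p = 0.00305). FOS, a subunit of the AP-1 transcription factor, measured 9.54, 37, 44.3 and 16.7 CPM with doxycycline and 104, 399, 369.6 and 48.1 CPM without. The untreated libraries differed among themselves by more than the treated ones, with high values for hairpins 1 and 2, yet the groups did not overlap (log2 fold change -2.88, SE 0.32, adjusted p = 0.00236). All 5 markers stayed called in each setting tried. They were chosen with earlier results of these data known, so their calls and separation are a description and no independent support. The effect in the hairpin pairs minus that in the parental pair was 0.35 for COL1A1, -0.0092 for CA9 and 0.58 for SLC7A11. It was 0.73 for PHACTR2 and 0.71 for FOS, beside -2.36 for PRRX1. The test of that difference called neither these markers nor PRRX1, the hairpin target. A missing call in it therefore does not show an equal change.

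**Figure D2:**
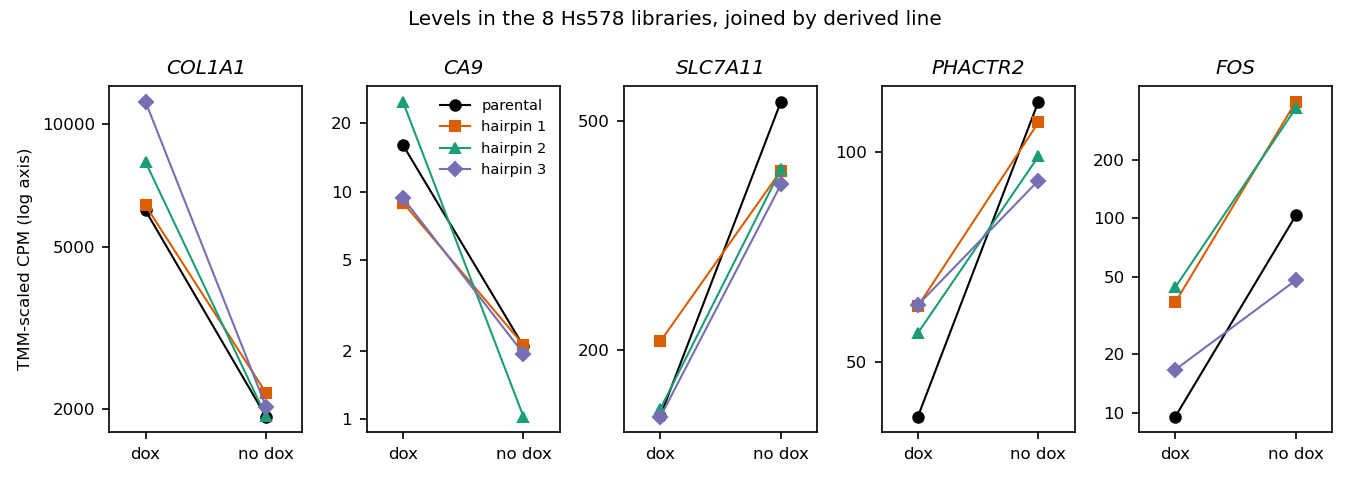
Level of COL1A1, CA9, SLC7A11, PHACTR2 and FOS in CPM (log axes) in the 4 Hs578 libraries with doxycycline (left of each panel) and the 4 without (right), with lines joining the libraries of 1 derived line. COL1A1 and CA9 are higher and SLC7A11, PHACTR2 and FOS lower in every doxycycline library than in any library without it.

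The genes with a large change in every pair were ranked by the log2 ratio of their least-changed pair. Among those higher after CA9 came IL32, a cytokine gene, with 16.2, 13.7, 23.4 and 38.4 CPM with doxycycline and 4.51, 4.13, 4.16 and 4.85 CPM without (log2 fold change 2.28, SE 0.21, adjusted p = 0.00131). TENM2, an adhesion molecule of the teneurin family, measured 14.1, 12.5, 10 and 18 CPM with doxycycline and 4.94, 4.4, 3.88 and 4.26 CPM without (log2 fold change 1.62, SE 0.15, adjusted p = 0.00131). ACTA2, smooth muscle actin, measured 45.9, 39.1, 42.7 and 90.3 CPM with doxycycline and 16.6, 16.6, 14.3 and 16.6 CPM without (log2 fold change 1.69, SE 0.19, adjusted p = 0.00199). In these 3 genes the libraries without doxycycline were nearly level, and the highest treated value came from hairpin 3.

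The other genes of this ranking that rose were mostly of the secretory pathway and the matrix. EFEMP2 (fibulin 4, needed for elastic fibres) had a log2 fold change of 1.52 (SE 0.14, adjusted p = 0.00131), TGFBI (a secreted adhesion protein induced by TGF-beta) of 1.69 (SE 0.19, adjusted p = 0.0021), and SERPINH1 (HSP47, the collagen-specific chaperone) of 1.42 (SE 0.18, adjusted p = 0.00249). GPX7, a peroxidase of the endoplasmic reticulum, rose by 1.62 (SE 0.17, adjusted p = 0.00154), and HTRA3, a secreted serine protease, by 1.3 (SE 0.12, adjusted p = 0.00131). CYGB, which encodes cytoglobin, rose by 1.71 (SE 0.22, adjusted p = 0.00236). P4HA3, a catalytic subunit of collagen prolyl 4-hydroxylase, rose by 1.12 (SE 0.16, adjusted p = 0.00274) with per-pair log2 ratios of 1.01, 0.94, 1.34 and 1.1.

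On the falling side the 12 genes ranked highest had a log2 ratio of -1.03 or lower in every pair. FOSB, a partner of FOS in AP-1, measured 3.58, 10.4, 9.95 and 5.86 CPM with doxycycline and 51.1, 329, 228 and 23 CPM without. It fell in every pair, though its call (log2 fold change -3.93, SE 0.5, adjusted p = 0.00409) was lost without the parental pair, at an adjusted p of 0.068. IGFBP1, a secreted binder of insulin-like growth factors, measured 3.89, 2.17, 3.14 and 1.7 CPM with doxycycline and 14.4, 9.9, 17.1 and 12.3 CPM without (log2 fold change -2.32, SE 0.18, adjusted p = 0.00131). ITGA2, the alpha 2 chain of a collagen-binding integrin, measured 222, 162, 164 and 81.7 CPM with doxycycline and 516, 524, 369 and 417 CPM without (log2 fold change -1.6, SE 0.19, adjusted p = 0.00236). These groups did not overlap, and hairpin 3 gave the lowest treated value for IGFBP1 and ITGA2.

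Several membrane proteins of other kinds fell in every pair. MCTP1, a calcium-binding protein with C2 domains, had a log2 fold change of -1.55 (SE 0.14, adjusted p = 0.00131), KCNJ2, an inwardly rectifying potassium channel, of -1.58 (SE 0.18, adjusted p = 0.00178), and SCN9A, a voltage-gated sodium channel, of -1.41 (SE 0.19, adjusted p = 0.00249). TRHDE, a membrane peptidase, fell by 1.51 (SE 0.19, adjusted p = 0.00224), and ABCA13, a member of the ABC transporter family, fell by 1.44 (SE 0.17, adjusted p = 0.0021). NCR3LG1, a ligand of a natural killer cell receptor, fell by 1.36 (SE 0.15, adjusted p = 0.00178), FMN1, an actin-nucleating formin, fell by 1.24 (SE 0.11, adjusted p = 0.00131), and FAM180A fell by 1.4 (SE 0.16, adjusted p = 0.00199). Per-pair ratios of FMN1 ran from -1.45 in the parental pair to -1.07 with hairpin 1.

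**Figure D3:**
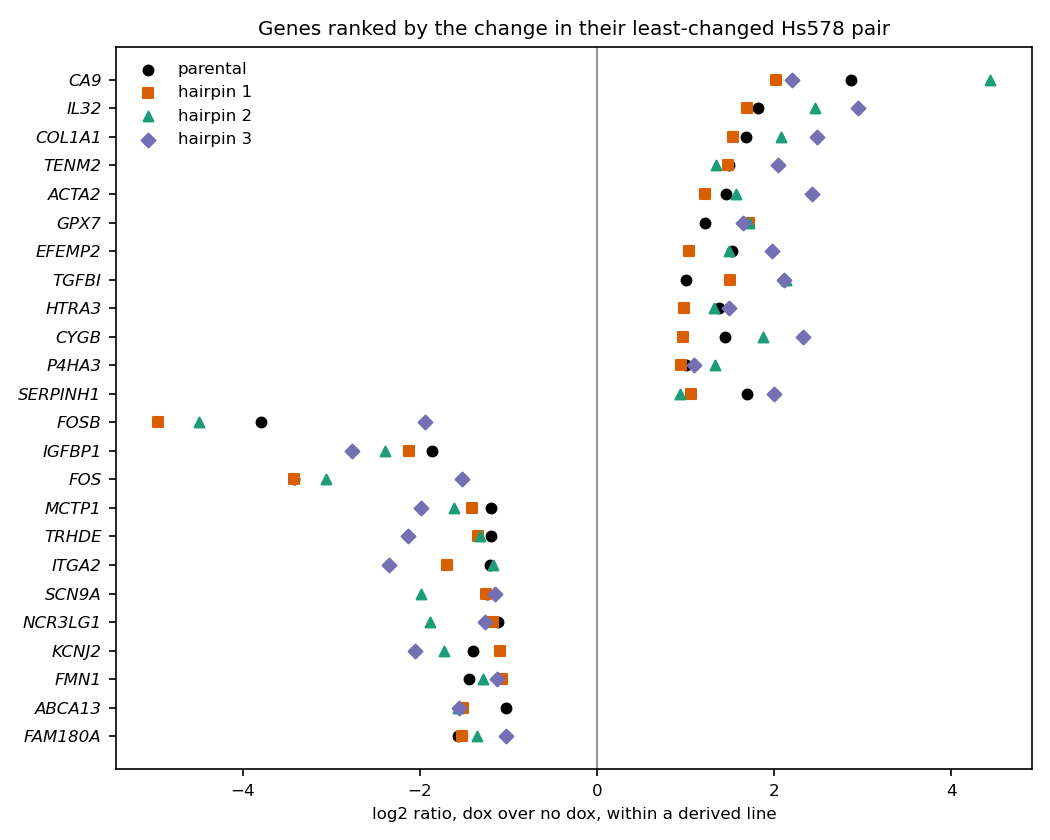
Log2 ratio of doxycycline over no doxycycline within each of the 4 Hs578 derived lines (horizontal axis) for the 12 higher and 12 lower genes with the largest change in their least-changed pair, 1 point a pair. Every point of the upper 12 genes is at 0.93 or higher and every point of the lower 12 at -1.03 or lower, and for FOSB and FOS the hairpin 3 point is the nearest to 0.

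Most of the collagen genes tested rose, led by COL1A1. Of 19 collagen genes tested, 13 were called higher and 0 lower, beside 15% higher and 16.9% lower over all genes. The median log2 fold change was 0.59 against -0.02 over all genes tested. COL5A1, a chain of the fibril-nucleating type V collagen, measured 1047, 1113, 1311 and 1317 CPM with doxycycline and 493, 598, 502 and 532 CPM without (log2 fold change 1.17, SE 0.11, adjusted p = 0.00131). COL18A1, a basement membrane collagen, measured 479.7, 386, 419.8 and 373 CPM with doxycycline and 218, 243, 240.2 and 249 CPM without (log2 fold change 0.8, SE 0.11, adjusted p = 0.00251). Neither gene overlapped between the groups. The medians of the list were 0.81 in the parental pair and 0.26, 0.57 and 0.75 with hairpins 1, 2 and 3, so the parental pair was the highest and hairpin 1 the lowest.

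Most of the proteins tested that modify and fold collagen rose too. Of 26 genes tested in that list, 18 were called higher and 0 lower (median 0.66), beside 15% higher and 16.9% lower over all genes. BMP1, which cleaves the C-propeptide of procollagen, measured 145, 158, 219 and 222 CPM with doxycycline and 78.4, 87.4, 83.8 and 88.2 CPM without (log2 fold change 1.11, SE 0.11, adjusted p = 0.00147). PLOD1, a lysyl hydroxylase, measured 684, 687, 901 and 767 CPM with doxycycline and 366, 382, 380.1 and 405 CPM without (log2 fold change 0.98, SE 0.1, adjusted p = 0.00147). P4HA1, the main catalytic subunit of prolyl 4-hydroxylase, measured 228, 258, 275 and 219.9 CPM with doxycycline and 119, 134, 101 and 121 CPM without (log2 fold change 1.05, SE 0.11, adjusted p = 0.00163). The treated libraries were higher in each line for these enzymes, and for P4HA1 hairpin 2 stood above the other pairs.

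Among other matrix glycoproteins and proteoglycans, 14 of 28 genes tested were called higher and 1 lower, with a median of 0.52. The shares over all genes were 15% higher and 16.9% lower. MFAP2, a microfibril glycoprotein, measured 94.3, 93.8, 110.3 and 97.5 CPM with doxycycline and 49.5, 54.4, 58.9 and 52 CPM without (log2 fold change 0.88, SE 0.076, adjusted p = 0.00131). SPARC, a collagen-binding matricellular protein, measured 3108, 2361, 2735 and 3249 CPM with doxycycline and 1237, 1387, 1261 and 1314 CPM without (log2 fold change 1.13, SE 0.12, adjusted p = 0.00177). Both stood clear of the untreated libraries in all 4 pairs.

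Of 24 matrix proteases and inhibitors tested, 7 were called higher and 4 lower, beside 15% higher and 16.9% lower over all genes. The count lower was thus near the share over all genes. The list median was 0.11, and -0.043 on the log2(FPKM + 1) scale, where that over all genes tested was -0.12. TIMP1, an inhibitor of metalloproteinases, measured 225, 167, 304 and 334 CPM with doxycycline and 112, 114, 131 and 131 CPM without (log2 fold change 1.03, SE 0.13, adjusted p = 0.00235). MMP1, the interstitial collagenase, measured 7.47, 7.16, 6.36 and 6.08 CPM with doxycycline and 13.1, 12, 19.7 and 12.5 CPM without (log2 fold change -1.05, SE 0.16, adjusted p = 0.00369). MMP16, a membrane-type metalloproteinase, fell by 0.84 (SE 0.079, adjusted p = 0.00131). The inhibitor was thus higher and these 2 proteases lower in every doxycycline library than in any library without the drug.

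Contractile and TGF-beta genes went partly the same way. Of 20 actin and smooth muscle genes tested, 7 were called higher and 3 lower, beside 15% higher and 16.9% lower over all genes. The list median was 0.16, and -0.0047 on the log2(FPKM + 1) scale, where that over all genes tested was -0.12. MYL9, a myosin regulatory light chain, rose by 1.05 (SE 0.15, adjusted p = 0.00305), and TPM2, a tropomyosin, by 0.86 (SE 0.14, adjusted p = 0.00397). Of 21 TGF-beta targets tested, 9 were called higher and 2 lower (median 0.35). LTBP3, which binds latent TGF-beta, rose by 0.66 (SE 0.094, adjusted p = 0.00281), and ID3, an inhibitor of basic helix-loop-helix factors, by 0.82 (SE 0.12, adjusted p = 0.00302).

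**Figure D4:**
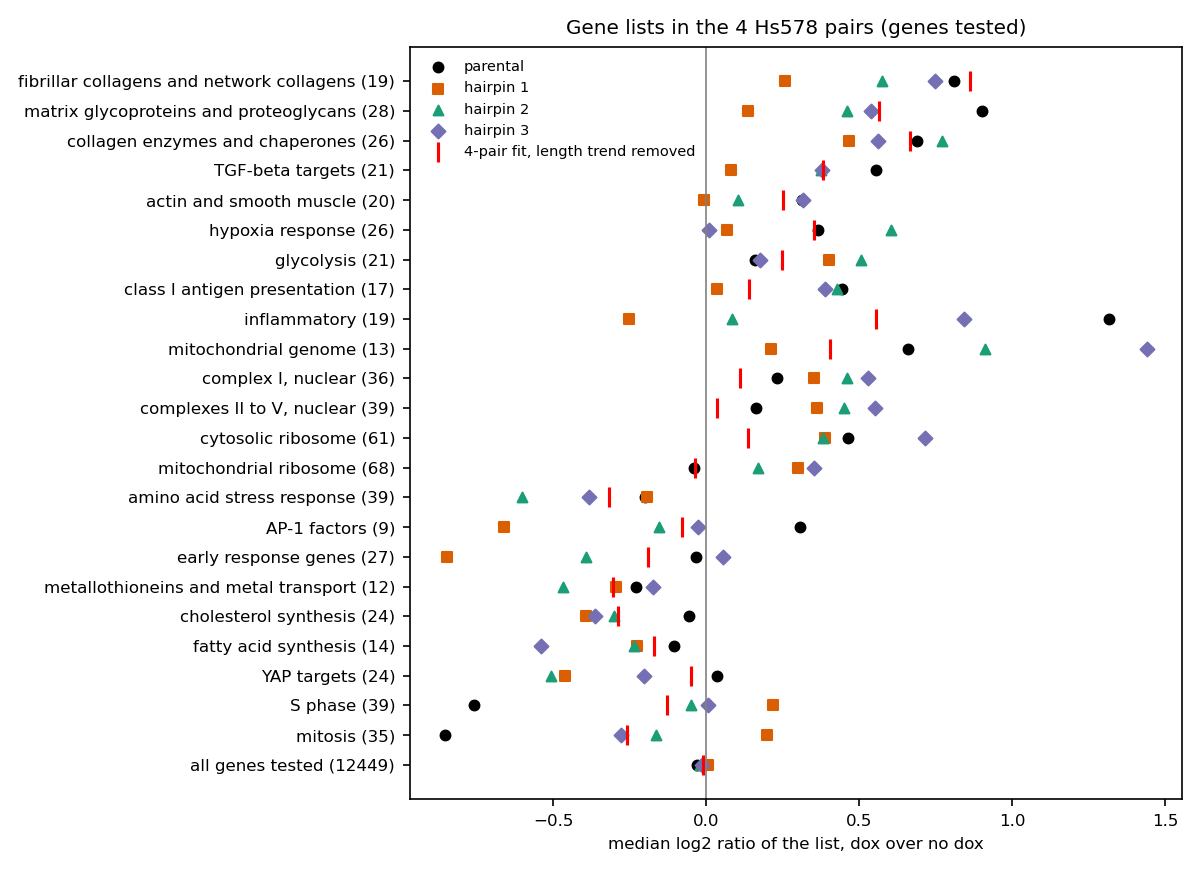
Median log2 ratio of doxycycline over no doxycycline in each of the 4 Hs578 pairs (points) for gene lists, with the number of genes tested in brackets. The red bar is the median over genes of the mean of the 4 pair ratios, after removal of the trend with gene length. Collagens and collagen enzymes are above 0 in all 4 pairs, the amino acid stress response is below 0 in all 4, and the S phase and mitosis lists are lowest in the parental pair, at -0.76 and -0.85.

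Part of the genes that respond to low oxygen rose, and part of the glycolysis genes. Of 26 hypoxia genes tested, 8 were called higher and 2 lower, with a median of 0.23. On the log2(FPKM + 1) scale the list median was -0.017, against -0.12 over all genes tested. Of 21 glycolysis genes tested, 11 were called higher and 1 lower, with a median of 0.30. Over all genes 15% were called higher and 16.9% lower. SLC16A3, a lactate exporter, measured 51.8, 44, 70.1 and 64 CPM with doxycycline and 31.1, 31.3, 36.5 and 34.2 CPM without (log2 fold change 0.77, SE 0.1, adjusted p = 0.00236). ALDOA, the glycolytic aldolase, measured 1179.8, 1303, 1641 and 1395 CPM with doxycycline and 787, 829.5, 871 and 876 CPM without (log2 fold change 0.7, SE 0.1, adjusted p = 0.00269). PFKL, a phosphofructokinase, rose by 0.58 (SE 0.1, adjusted p = 0.00424), and P4HA2, a prolyl 4-hydroxylase subunit, by 0.84 (SE 0.1, adjusted p = 0.00208). These genes were separated between the groups, but the hypoxia list as a whole was not even, with medians of 0.37 in the parental pair and 0.07, 0.60 and 0.01 with hairpins 1, 2 and 3.

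Promoters of 3 of the genes called higher in these lists are shown because hypoxia-inducible factor binds a short core, ACGTG, read on either strand (CACGT on the other strand; a CACGTG palindrome counts for both). The windows run from 250 bases before to 50 bases after each gene start, 5′ to 3′ on the gene's strand, from RefSeq on build GRCh38.p14, with the core in capitals.
CA9, chr9:35673678-35673977, plus strand: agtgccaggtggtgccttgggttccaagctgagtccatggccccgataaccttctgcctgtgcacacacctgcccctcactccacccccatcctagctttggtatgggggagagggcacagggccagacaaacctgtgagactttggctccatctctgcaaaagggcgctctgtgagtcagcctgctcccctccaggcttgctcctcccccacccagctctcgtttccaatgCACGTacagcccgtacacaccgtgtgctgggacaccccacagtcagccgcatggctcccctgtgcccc
P4HA1, chr10:73096817-73097116, minus strand: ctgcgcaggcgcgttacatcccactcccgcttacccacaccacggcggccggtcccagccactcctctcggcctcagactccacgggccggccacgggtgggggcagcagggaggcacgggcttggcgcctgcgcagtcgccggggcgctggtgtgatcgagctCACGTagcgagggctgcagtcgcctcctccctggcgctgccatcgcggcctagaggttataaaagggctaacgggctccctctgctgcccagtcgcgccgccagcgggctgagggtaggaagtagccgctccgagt
ALDOA, chr16:30064029-30064328, plus strand: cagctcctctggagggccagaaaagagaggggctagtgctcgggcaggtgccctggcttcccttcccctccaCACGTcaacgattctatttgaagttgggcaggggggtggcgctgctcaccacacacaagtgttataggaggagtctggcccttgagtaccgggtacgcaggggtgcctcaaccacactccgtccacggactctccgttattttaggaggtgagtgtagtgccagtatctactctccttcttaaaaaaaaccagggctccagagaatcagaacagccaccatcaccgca
Each of these windows held 1 match, which began 18 bases before the gene start for CA9, 86 for P4HA1 and 178 for ALDOA. The windows of SLC16A3, PFKL and P4HA2, also called higher and not shown, did not hold the core. The core stood in 21.6% of 27305 promoters in the table and in 26.7% of the promoters of tested genes that could be matched. Of the hypoxia and glycolysis genes called higher, 18 had a promoter in the table and 11 of those (61.1%) held the core. Of the genes in these lists that were tested and not called higher, 20 had a promoter and 7 (35%) held it. A match is a description of the letters and not a binding site.

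The class I histocompatibility genes HLA-B and HLA-C rose in every pair. Of 17 genes of class I presentation tested, 9 were called higher and 2 lower (median 0.30), beside 15% higher and 16.9% lower over all genes. HLA-B measured 161, 118, 201 and 244 CPM with doxycycline and 58.2, 63.2, 69.7 and 64 CPM without (log2 fold change 1.46, SE 0.15, adjusted p = 0.00178), and HLA-C measured 195, 137, 206 and 218 CPM with doxycycline and 88.6, 94.6, 98.7 and 97.7 CPM without (log2 fold change 0.97, SE 0.12, adjusted p = 0.00206). Both genes share reads with near-identical copies, so the split between them is uncertain, but both were higher in every treated library than in any untreated one. With the trend with gene length removed, 6 of the 17 were called higher and 0 lower, with a median of 0.14. Under that removal 1243 of all 12449 genes tested were called higher and 1149 lower.

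Of 19 inflammatory genes tested, 6 were called higher and 0 lower, beside 15% higher and 16.9% lower over all genes. The list medians were 1.32 in the parental pair, -0.25 with hairpin 1, 0.08 with hairpin 2 and 0.84 with hairpin 3. NFKBIA, the inhibitor of NF-kappa B that NF-kappa B itself induces, measured 26.7, 17.1, 23.9 and 23.1 CPM with doxycycline and 13.7, 13.8, 14.7 and 14.1 CPM without (log2 fold change 0.67, SE 0.12, adjusted p = 0.00603). NFKB2, a precursor subunit of NF-kappa B, rose by 0.65 (SE 0.16, adjusted p = 0.0159), a call lost without hairpin 2 or hairpin 3 and in limma on FPKM, where the log2 fold change was as low as 0.099. The blood cell marker list, which bears on whether immune cells were present, summed to 42.4 to 98.9 CPM with doxycycline and 58.4 to 63.5 CPM without, nearly all of it CD68 at 40.6 to 97.2 CPM.

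Genes of the mitochondrial genome and of the respiratory chain rose with doxycycline. The 13 protein genes of the mitochondrial genome took 4.26 ± 0.927% of all counts with doxycycline and 2.49 ± 0.314% without (SD, n = 4 each), with a range of 3.18 to 5.44% with doxycycline and 2.16 to 2.79% without. The share was higher in 4 of 4 pairs, and an exact two-sided permutation test gave p = 0.0286, the smallest that 4 against 4 allows, and 0.04 after adjustment over 7 library measures. That test treats the libraries as unpaired; an exact two-sided sign-flip test within the 4 pairs, added after seeing the data, gave p = 0.125, the smallest that 4 pairs allow. Of the 13 genes, 10 were called higher and 0 lower (median 0.77), beside 15% higher and 16.9% lower over all genes. MT-CO1, a core subunit of cytochrome oxidase, measured 6253, 4095, 6446 and 7766 CPM with doxycycline and 3701, 3533, 2808 and 2569 CPM without (log2 fold change 0.94, SE 0.21, adjusted p = 0.0127), and its smallest rise was with hairpin 1. That call was lost without hairpin 2 or hairpin 3 and in DESeq2. MT-ND3, a subunit of complex I, rose by 0.85 (SE 0.15, adjusted p = 0.00502), and with the trend with gene length removed its log2 fold change was 0.40 and the call was lost at an adjusted p of 0.0521.

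Before any correction for gene length, nuclear genes of the same machinery moved less but in the same direction. Over all genes 15% were called higher and 16.9% lower. Of 36 nuclear complex I genes tested, 23 were called higher and 1 lower (median 0.39). Among 39 genes of complexes II to V, 26 were called higher and 0 lower (median 0.39). NDUFA13, a complex I subunit, rose by 0.81 (SE 0.11, adjusted p = 0.00277), and ATP5D, a subunit of ATP synthase, by 0.81 (SE 0.12, adjusted p = 0.00281). Of 61 cytosolic ribosomal protein genes, 59 were called higher and 0 lower (median 0.49), and RPL29, a protein of the large subunit, rose by 0.65 (SE 0.091, adjusted p = 0.00274). Of 68 mitochondrial ribosomal protein genes tested, 21 were called higher and 0 lower (median 0.21), although the list median was -0.04 in the parental pair. Genes of these families share reads with near-identical copies elsewhere in the genome, so single values are uncertain.

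These genes are short, and gene length went with the doxycycline ratio in Hs578. Length was taken from the ratio of the deposited counts and FPKM values, which followed the longest coding transcript of GENCODE v29 with a Spearman correlation of 0.779 over 11806 genes. The genes were put in 5 bins of equal size by length. In the shortest bin, with a median of 1037 bases, 865 were called higher and 57 lower with doxycycline. In the longest bin, with a median of 6765 bases, 80 were called higher and 925 lower. Median log2 ratios in the shortest bin were 0.14, 0.28, 0.25 and 0.36 in the 4 pairs, and in the longest bin -0.25, -0.28, -0.25 and -0.30. The trend was present in the parental pair as in the hairpin pairs, and in TT642 the bins lay between -0.06 and 0.04. The genes were not chosen by level in TT642, where those with few or no counts have ratios near 0.

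With the length trend removed within the 4 pairs, 2392 of all 12449 genes tested were called, 1243 higher and 1149 lower. The respiratory and ribosomal lists had fewer calls. For complex I, 5 genes were called higher and 0 lower with a median of 0.11. Complexes II to V gave 4 higher and 4 lower with a median of 0.033, so no shared direction was left there. Cytosolic ribosomal genes gave 7 higher and 0 lower with a median of 0.14, and mitochondrial ribosomal genes 3 higher and 4 lower with a median of -0.04. The counts called for complexes II to V and for both ribosomal lists were near or below the share over all genes. In the mitochondrial genome list 3 genes were called higher, with a median of 0.40. Collagens, whose median length is 7684 bases, gained under the same correction, with 15 of 19 called higher and a median of 0.86, and collagen enzymes had 19 of 26 called higher. In the amino acid stress response 17 genes were called lower and 1 higher. The part of RNA quality or library preparation in the length trend was not tested.

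**Figure D5:**
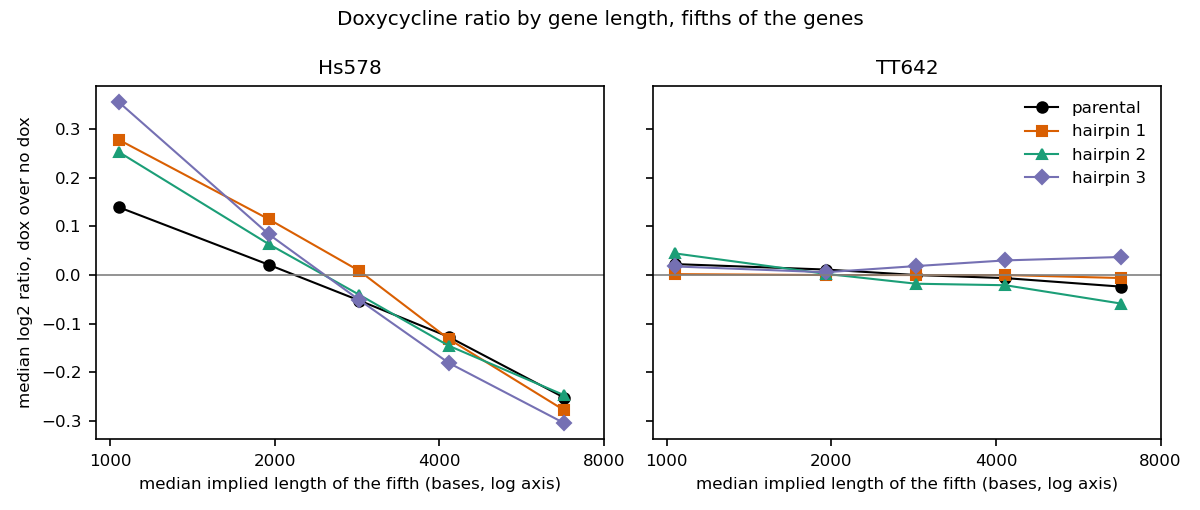
Median log2 ratio of doxycycline over no doxycycline (vertical axis) in 5 bins of genes by implied length in bases (horizontal, log axis), in Hs578 (left) and TT642 (right), 1 line a derived line. Genes were chosen by their level in Hs578. All 4 Hs578 lines fall with length, with 0.14 or more in the shortest bin and -0.25 or less in the longest, and the TT642 lines stay within 0.06 of 0.

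FOS, FOSB and ATF3 fell, and other immediate early genes fell at a share not far above that of all genes. Of 9 AP-1 genes tested, 3 were called lower (FOS, FOSB and ATF3) and 0 higher, with a median of -0.02. ATF3, a stress-induced factor of the same family, measured 7.59, 3.64, 3.6 and 4.55 CPM with doxycycline and 11.4, 49.9, 29.5 and 8.9 CPM without (log2 fold change -2.06, SE 0.54, adjusted p = 0.0265), and the call was lost without the parental pair or hairpin 2, without the low-count filter and in limma with either pseudocount. Of 27 other early response genes, 6 were called lower and 1 higher (median -0.32), beside 16.9% lower over all genes. The per-pair medians of this list were -0.03, -0.85, -0.39 and 0.06, so the parental pair was near level. With the length trend removed 3 were lower with a median of -0.19. KLF4, a zinc finger factor, measured 31.1, 21.7, 27 and 14.7 CPM with doxycycline and 51.9, 52.5, 60.6 and 45 CPM without (log2 fold change -1.19, SE 0.14, adjusted p = 0.00191). NR4A3, an orphan nuclear receptor, measured 3.51, 1.09, 1.61 and 1.53 CPM with doxycycline and 7.2, 7.12, 7.93 and 7.28 CPM without (log2 fold change -1.99, SE 0.27, adjusted p = 0.0027). Both were separated between the groups, while hairpins 1 and 2 started from higher FOS, FOSB and ATF3 levels than the other lines.

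Genes of the amino acid stress response, which ATF4 drives when amino acids or mitochondrial function fail, were lower in part. Of 39 tested, 19 were called lower and 2 higher, beside 16.9% lower and 15% higher over all genes. The list had a median of -0.33 and per-pair medians of -0.20, -0.20, -0.60 and -0.38. CHAC1, an enzyme that degrades glutathione, measured 26.9, 15.7, 22.4 and 21.8 CPM with doxycycline and 43.2, 35.8, 43.7 and 49.1 CPM without (log2 fold change -1.0, SE 0.11, adjusted p = 0.00178). SESN2, a leucine sensor of the mTOR pathway, measured 32.1, 16.1, 20.8 and 17.7 CPM with doxycycline and 46.7, 37, 53.1 and 44.8 CPM without (log2 fold change -1.1, SE 0.14, adjusted p = 0.00251). Both mitokine genes tested were called lower, though the call of ADM2 was lost with the length trend removed and without hairpin 2 or hairpin 3. GDF15, a circulating hormone of mitochondrial stress, measured 11.6, 3.71, 6.74 and 5.59 CPM with doxycycline and 20.4, 15.8, 34.8 and 17.3 CPM without (log2 fold change -1.69, SE 0.24, adjusted p = 0.00305). The treated libraries lay below all the others for the 3 genes, and the parental pair changed least.

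Iron, zinc and copper transporters were among the genes that fell. Of 12 genes tested, 5 were called lower and 1 higher (median -0.17), beside 16.9% lower and 15% higher over all genes. TFRC, the transferrin receptor that brings iron into the cell, measured 206, 312, 242 and 266 CPM with doxycycline and 549, 516, 493 and 470.1 CPM without (log2 fold change -1.0, SE 0.12, adjusted p = 0.00213). SLC30A1, the zinc exporter of the plasma membrane, measured 35.6, 33.9, 24.3 and 24.8 CPM with doxycycline and 77.8, 51.4, 51.4 and 53 CPM without (log2 fold change -0.98, SE 0.11, adjusted p = 0.00178). ATP7A, a copper pump, fell by 0.8 (SE 0.1, adjusted p = 0.00234). None of the 3 overlapped between the groups.

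Part of the lipid synthesis genes were lower, by smaller steps. Of 24 genes of cholesterol synthesis and uptake tested, 9 were called lower and 1 higher (median -0.28). Over all genes 16.9% were called lower and 15% higher. The per-pair medians of this list were -0.06, -0.39, -0.30 and -0.36, so the parental pair was the least changed. LSS, lanosterol synthase, measured 107, 118, 118 and 98.1 CPM with doxycycline and 158, 159, 154 and 159.6 CPM without (log2 fold change -0.52, SE 0.085, adjusted p = 0.00408), with no overlap between the groups. Of 14 fatty acid synthesis genes, 4 were called lower and 0 higher (median -0.28), with per-pair medians of -0.11, -0.23, -0.24 and -0.54. Among those called lower was ACACA, acetyl-CoA carboxylase, with -0.58 (SE 0.087, adjusted p = 0.00315). With the length trend removed 2 were lower with a median of -0.17. On the log2(FPKM + 1) scale the median was -0.55, against -0.12 over all genes tested. Of 24 YAP targets tested, 10 were called lower and 0 higher (median -0.19), led by ASAP1, a regulator of ARF GTPases, at -0.66 (SE 0.084, adjusted p = 0.00234). The per-pair medians of the YAP list were 0.04, -0.46, -0.51 and -0.20. The list median was thus lower in the hairpin pairs and not in the parental pair. With the length trend removed, 3 YAP targets were lower and 2 higher.

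The difference between the hairpin pairs and the parental pair was also tested. The parental side is 1 pair with no replicate, so the spread comes from the 3 hairpin pairs alone and the parental pair is assumed to vary like them. The test of hairpin pairs minus the parental pair called 26 of 12449 genes (0.209%), 13 higher (0.104%) and 13 lower (0.104%), and 2120 genes had an unadjusted p under 0.05 in it. The count ran from 0 with no replicate block and 1 without robust moderation to 285 without the low-count filter. Of the 12 genes named from this test, 12 lost the call with no replicate block, 11 without robust moderation, 9 with the length trend removed and 8 under RLE scaling. Of the 6 named as higher, several are cell cycle genes. CLSPN, a replication checkpoint protein, measured 25.5, 81.2, 68 and 91 CPM with doxycycline and 51.2, 53.1, 52.5 and 51.8 CPM without, and SKA3, a kinetochore protein, measured 8.1, 34.8, 27.7 and 28.8 CPM with doxycycline and 21.4, 21.2, 20.9 and 21.1 CPM without. In both the untreated libraries were level, the treated parental library was the lowest, and the treated hairpin libraries were the highest. The hairpin minus parental difference was 1.61 (SE 0.21, adjusted p = 0.0424) for CLSPN and 1.93 (SE 0.23, adjusted p = 0.0392) for SKA3.

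The cell cycle lists had lower medians in the parental pair than in any hairpin pair. Over all genes 15% were called higher and 16.9% lower across the 4 pairs. Of 39 S phase genes tested, 2 were called lower and 0 higher over the 4 pairs, with medians of -0.76 in the parental pair and 0.22, -0.05 and 0.01 with the hairpins, and 4 of them were called in the difference. Of 35 mitosis genes, 5 were called lower and 0 higher, with medians of -0.85 in the parental pair and 0.20, -0.16 and -0.28 with the hairpins, and 0 of them were called in the difference. ECT2, which activates RhoA for cytokinesis, fell in each pair, with 101, 157, 96.2 and 92.8 CPM with doxycycline and 216, 199, 160.3 and 181 CPM without (log2 fold change -0.78, SE 0.12, adjusted p = 0.00391). MKI67, the Ki-67 proliferation antigen, had per-pair log2 ratios of -1.29, 0.0045, -0.68 and -0.68, and its call was lost without hairpin 2 or hairpin 3, with the length trend removed and with no replicate block. ZWINT, ESCO2, NCAPG and KIAA1524 were also higher in the hairpin pairs than in the parental pair, by 1.56, 1.53, 1.26 and 1.16.

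In the other direction, some genes were higher in the parental pair than in the hairpin pairs. COL15A1, a basement membrane collagen, measured 133, 26.4, 38.4 and 32.9 CPM with doxycycline and 38.8, 25.6, 36.9 and 34 CPM without, so that the treated parental library stood above all the others. Its difference between hairpin pairs and parental pair was -1.75 (SE 0.18, adjusted p = 0.0206). TGFB2, a TGF-beta ligand, measured 419.6, 153, 155 and 157 CPM with doxycycline and 209.5, 219, 172 and 190.3 CPM without (difference -1.32, SE 0.19, adjusted p = 0.0457). CSF1, the macrophage growth factor, measured 368, 176, 189 and 127 CPM with doxycycline and 267, 329, 306 and 291 CPM without (difference -1.4, SE 0.22, adjusted p = 0.0457). MME, TNFRSF11B and ZFP36L1 also differed, by -1.55, -1.46 and -1.27. For MME and TNFRSF11B the hairpin pairs were at -1.24 or below while the parental ratios were 0.18 and -0.24.

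TT642 cells, treated in the same way, changed less. The median absolute log2 ratio over 10693 genes was 0.249 to 0.293 in the Hs578 pairs and 0.0848 to 0.170 in the TT642 pairs. These genes were chosen by their level in Hs578, so some had few or no counts in TT642 and entered with ratios near 0. How much of the difference comes from that choice was not tested. The test of the doxycycline effect in Hs578 minus that in TT642, over all 16 libraries, called 1918 of 13436 genes (14.3%), 920 higher (6.85%) and 998 lower (7.43%) in Hs578. The count was 923 without the Hs578 hairpin 2 pair, 1034 without hairpin 3, and 946, 774 and 724 without the TT642 parental, hairpin 1 and hairpin 3 pairs. TSPO, an outer mitochondrial membrane protein, had an effect of 0.93 in Hs578 and 0.05 in TT642 (difference 0.88, SE 0.11, adjusted p = 0.00201). PLOD1 differed by 0.91 (SE 0.11, adjusted p = 0.00201) and BMP1 by 1.15 (SE 0.14, adjusted p = 0.00201). COL1A1 had an effect of 1.95 in Hs578 and 0.83 in TT642, a difference of 1.13 (SE 0.27, adjusted p = 0.0208). The collagen list was above 0 in TT642 too, with a median effect of 0.44 beside 0.60 in Hs578 in this fit. Its TT642 pair medians were 0.19, 0.15, 0.41 and 0.37. In the difference 5 of its genes were called higher and 2 lower in Hs578.

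Genes lower in Hs578 than in TT642 included members of the amino acid stress response. SLC7A11 had an effect of -1.37 in Hs578 and -0.04 in TT642, a difference of -1.34 (SE 0.15, adjusted p = 0.00201), and CHAC1 had -0.99 in Hs578 and 0.19 in TT642, a difference of -1.18 (SE 0.12, adjusted p = 0.00194). Of the 39 genes of that list, 15 were called lower and 1 higher in the difference, beside 7.43% lower and 6.85% higher over all genes. The list median in TT642 was 0.03. VPS13C, a lipid transfer protein, differed by -1.05 (SE 0.1, adjusted p = 0.00151), and IL6ST, the shared signalling receptor of the interleukin 6 family, by -0.81 (SE 0.093, adjusted p = 0.00201). FOS had -2.88 in Hs578 and 0.24 in TT642, a difference of -3.12 (SE 0.47, adjusted p = 0.00608). For CA9 the difference was 1.36 (SE 4.6, adjusted p = 0.891), too wide an error to resolve it.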

How the data were processed

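Polyadenylated RNA of 16 libraries was sequenced after a stranded TruSeq preparation, per the labels' protocols. The authors deposited raw read counts per gene and FPKM per gene, on build hg19 according to the submitters' processing notes. The sources used here do not name an aligner, a counter with its strand setting or an annotation. Gene symbols were used as deposited.

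Counts were tested with edgeR 4.0.16 (quasi-likelihood, TMM scaling, filterByExpr, Benjamini-Hochberg over all genes tested, threshold 0.05), with the derived line as a block, in R 4.3.3. The labels pair the libraries by derived line, as the same line with and without doxycycline. Each SE is the absolute log2 fold change divided by the square root of the quasi-likelihood F statistic, and was not estimated separately. The log2 ratio of each pair was taken after adding a prior count of 2. No 2 libraries agreed within sampling noise (lowest chi-square per degree of freedom 6.69). The length trend was removed with a lowess (span 0.3) per library. limma 3.58.1 on log2(FPKM + 1) and log2(FPKM + 0.1), DESeq2 1.42.0, RLE scaling, no filter, no robust moderation, no block, all 16 libraries and leaving out each pair were the alternatives.

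Genes are named by a rule: PRRX1 and the response markers, the 12 genes per direction with the largest change in their least-changed pair (mean log2 CPM at least 2), up to 3 called genes with the smallest p per list, and the 6 genes per direction with the smallest p in each difference. Identity markers are named from the marker lists. A few genes that the rule names are not reported here. The members and lists were chosen with earlier results of these data known. Lists are described by counts and medians, with no test of the list.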

Additional observations from a re-analysis of the deposited data

Results flagged for a closer look

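Among 158 sets of 4 values examined for a single one far from the others, 11 held one, where chance gives about 5%. The hairpin 1 pair was the low one for MFAP2 (log2 ratio 0.78), HLA-C (0.53) and the median of the class I list (0.04), and the least changed for SLC30A1 (-0.60). The parental pair was the least changed for GPX7 (1.22) and ABCA13 (-1.03). The hairpin 2 pair changed most for P4HA1 (1.44) and SCN9A (-1.98), and the hairpin 3 pair changed most for RPL36 (1.11), KRT7 (1.59) and TRHDE (-2.13).

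The doxycycline effect in the hairpin pairs minus that in the parental pair differed by edgeR's test for 12 named genes. The parental side is 1 pair, and of the 12 genes 12 lost the call with no replicate block, 11 without robust moderation, 9 with the length trend removed and 8 under RLE scaling. It was positive for SKA3 (1.93), CLSPN (1.61), ZWINT (1.56), ESCO2 (1.53), NCAPG (1.26) and KIAA1524 (1.16). It was negative for COL15A1 (-1.75), MME (-1.55), TNFRSF11B (-1.46), CSF1 (-1.40), TGFB2 (-1.32) and ZFP36L1 (-1.27).

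The effect in Hs578 minus that in TT642 also differed for 11 of the named genes. It was positive for HTRA3 (1.97), SELM (1.22), BMP1 (1.15), PLOD1 (0.91) and TSPO (0.88). It was negative for SLC7A11 (-1.34), CHAC1 (-1.18), VPS13C (-1.05), NUDT4 (-1.0), SYNM (-0.92) and IL6ST (-0.81).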

How the results depend on the processing

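Of 116 named genes called over the 4 pairs, 88 stayed called whichever pair was left out and 79 in every setting. The count of 3969 stayed within 1.5 times under RLE scaling (3943), no filter on low counts (3817), DESeq2 (3583), limma on log2(FPKM + 1) (4075) and all 16 libraries (5136). Leaving out a pair gave 1360 to 4502 genes, 596 to 2163 higher and 764 to 2339 lower. Genes called higher numbered 1112 and 1104 in limma on log2(FPKM + 1) and log2(FPKM + 0.1). With the length trend removed, 2392 were called, 1243 higher and 1149 lower, and the hairpin pairs alone gave 2793, against 2846 to 3709 with a pair left out.

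The derived line was the block of each model. Deviations from the group means correlated at 0.26, 0.03, 0.32 and 0.13 within the 4 Hs578 lines and at -0.44 to 0.36 between different lines, so the pairing rests on the labels and not on these values. With no replicate block, 3524 genes were called over the 4 pairs, 0 for hairpin minus parental and 461 for Hs578 minus TT642.

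The 26 genes of hairpin minus parental became 5 under RLE scaling, 285 with no filter, 102 in DESeq2, 1 without robust moderation, 16 and 10 in limma with either pseudocount, 4 with the length trend removed, 143 with all 16 libraries, and 78 to 262 with a hairpin pair left out. Hs578 minus TT642 gave 858 genes with the length trend removed and 724 to 2660 with a pair left out. The shared-sign percentage was 85.3 in DESeq2, 82.3 and 82.5 in limma, and 80.6 to 88.3 with a pair left out. Genes at least 2-fold changed in every pair, settings chosen after seeing the data, numbered 24 to 104 higher and 29 to 57 lower with a pair left out. The mitochondrial share differed by 1.77 percentage points (p = 0.125 in an exact sign-flip test within pairs, as a replicate block, chosen after seeing the data), and by 1.27 to 2.23 percentage points with a pair left out, where an exact test of 3 against 3 cannot go below 0.1. List medians changed sign for the mitochondrial ribosome with the length trend removed (-0.038), and under log2(FPKM + 1) for matrix proteases (-0.043), actin genes (-0.0047), blood cell markers (-0.011) and hypoxia (-0.017). Medians within 0.05 of 0 also changed sign: mitochondrial stress, NRF2, endoplasmic reticulum folding and lysosome under log2(FPKM + 1), mitochondrial stress, NRF2 and mesenchymal markers with the length trend removed, and p53 targets under RLE scaling. On the log2(FPKM + 1) scale the median over all genes tested was itself -0.12, against -0.02 in counts. The cause of these shifts was not tested. Low genes such as CA9 rest on few counts.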

Other observations

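Of 32 interferon genes tested, 8 were called higher and 7 lower, with a median of -0.12, beside 15% higher and 16.9% lower over all genes, and with the length trend removed 4 were higher and 3 lower. IFITM3, a membrane protein that limits virus entry, measured 1186, 689, 1511 and 1144 CPM with doxycycline and 498, 558, 619 and 574 CPM without (log2 fold change 0.96, SE 0.16, adjusted p = 0.00471), while DDX58, the RNA sensor RIG-I, fell by 0.57 (SE 0.11, adjusted p = 0.00622). Of 25 NRF2 targets tested, 5 were called higher and 6 lower (median 0.042), and HMOX1, haem oxygenase, measured 50.1, 55.2, 77.6 and 68.9 CPM with doxycycline and 80.3, 82.1, 111 and 82.6 CPM without (log2 fold change -0.51, SE 0.09, adjusted p = 0.00535). Of 21 p53 targets tested, 0 were called higher and 2 lower (median -0.0025), with MDM2, the ligase that degrades p53, at -0.43 (SE 0.079, adjusted p = 0.00604).

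For chaperones and degradative compartments the counts lay near the shares over all genes, 15% higher and 16.9% lower, and are given as values only. Of 22 genes of endoplasmic reticulum folding tested, 5 were called higher and 5 lower, among them PDIA3, a disulfide isomerase, with 0.54 (SE 0.093, adjusted p = 0.00472), and EDEM1, of the degradation pathway for misfolded glycoproteins, with -0.52 (SE 0.1, adjusted p = 0.00622), a call lost with the length trend removed. Of 25 lysosome and autophagy genes, 6 were called higher and 3 lower, and GRN, progranulin, had 0.53 (SE 0.083, adjusted p = 0.00355). Of 16 heat shock genes, 1 was called higher and 1 lower, and of 22 genes of mitochondrial stress and import, 3 were called higher and 2 lower.

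Identity markers moved within low or high levels. CD44, a hyaluronan receptor, measured 2975, 2794, 2451 and 2202 CPM with doxycycline and 3977, 3836, 3824 and 3627 CPM without (log2 fold change -0.56, SE 0.1, adjusted p = 0.0064), a call lost without hairpin 2. TWIST1, a mesenchymal transcription factor, measured 43.1, 26.1, 40.4 and 30.7 CPM with doxycycline and 20.6, 21.1, 18.9 and 21.1 CPM without (log2 fold change 0.75, SE 0.14, adjusted p = 0.00711). SPINT1, an epithelial protease inhibitor, measured 4.83, 1.73, 3.52 and 2.08 CPM with doxycycline and 0.913, 0.87, 1.08 and 0.809 CPM without (log2 fold change 1.65, SE 0.28, adjusted p = 0.00469). Over 2 adipocyte markers called, FABP4 and CD36, all 16 values were at or below 1.63 CPM.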
